A study of Sus scrofa with 5 samples.

Results

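A set of 8 genes of insulin signalling, FOXO control and muscle atrophy was followed through the nuclei of pig abdominal aorta: the transcription factors FOXO1 and FOXO3, the ubiquitin-binding protein gene ZFAND5, the muscle ubiquitin ligase genes FBXO32 and TRIM63, the insulin receptor gene INSR and the receptor substrate genes IRS1 and IRS2. They were matched by gene symbol, and all 8 of 8 were found among the 35670 features of the count matrices. The list had been drawn up with the obese-against-control differences of these same libraries already known, so its members count as chosen by these UMI counts. The levels and diet differences of the 8 genes are therefore given as a description, and no test is read from them. The tissue came from 3 obese and 2 control Ossabaw pigs, a breed that stores fat readily, all of them castrated males aged 12 months when the diets began. Obese pigs ate an HF/HFru diet and control pigs ate chow, for 6 months per the sample labels and for 9 months per the series text. Each library held sorted nuclei from a piece of snap-frozen vessel about 50 mm long from 1 pig, sequenced with 10x Genomics droplet chemistry. The labels name the obese aortae atherosclerotic only through the title of the series, and give neither weights nor lesion measurements.

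Insulin binds its receptor on the cell surface, which phosphorylates the docking proteins IRS1 and IRS2. These recruit PI3-kinase, and the kinase AKT downstream of it phosphorylates FOXO proteins, which then leave the nucleus. When insulin signalling is low, FOXO proteins stay in the nucleus and switch on genes of stress resistance, gluconeogenesis and protein breakdown. In skeletal muscle of rodents, FBXO32 (atrogin-1) and TRIM63 (MuRF1) are the classical FOXO-driven ubiquitin ligases of atrophy, and ZFAND5 stimulates the proteasome during wasting. In the vessel wall the insulin receptor of endothelium is known for nitric oxide production, and that of smooth muscle for growth and contractile tone.

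The start regions of FOXO3, INSR and ZFAND5 are shown. FOXO3 and ZFAND5 are the genes whose rise was to be followed across all cell classes. INSR is shown for its fitted log2 diet difference, 1.71 in endothelial-like and -0.26 in smooth muscle-like nuclei, given as a description. Each region runs from 250 bases before to 50 bases after the annotated start of the gene in the RefSeq pig genome Sscrofa11.1, read along the strand of the gene. Capitals mark 2 letter strings searched on both strands, the forkhead core GTAAACA and the insulin response core CAAAACA.
FOXO3, chr1:74626423-74626722, plus strand: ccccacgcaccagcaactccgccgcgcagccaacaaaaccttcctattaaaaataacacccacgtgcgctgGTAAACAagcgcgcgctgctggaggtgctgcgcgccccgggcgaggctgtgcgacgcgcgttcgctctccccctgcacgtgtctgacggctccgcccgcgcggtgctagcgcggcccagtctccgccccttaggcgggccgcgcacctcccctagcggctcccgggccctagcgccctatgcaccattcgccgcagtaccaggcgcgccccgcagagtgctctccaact
INSR, chr2:71796959-71797258, plus strand: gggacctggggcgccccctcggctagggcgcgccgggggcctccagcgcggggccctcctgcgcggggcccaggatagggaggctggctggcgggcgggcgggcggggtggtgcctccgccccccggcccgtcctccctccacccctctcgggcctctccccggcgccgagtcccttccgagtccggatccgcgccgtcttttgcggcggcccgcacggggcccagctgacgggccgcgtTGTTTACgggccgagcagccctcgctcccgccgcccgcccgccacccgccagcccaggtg
ZFAND5, chr1:225714473-225714772, minus strand: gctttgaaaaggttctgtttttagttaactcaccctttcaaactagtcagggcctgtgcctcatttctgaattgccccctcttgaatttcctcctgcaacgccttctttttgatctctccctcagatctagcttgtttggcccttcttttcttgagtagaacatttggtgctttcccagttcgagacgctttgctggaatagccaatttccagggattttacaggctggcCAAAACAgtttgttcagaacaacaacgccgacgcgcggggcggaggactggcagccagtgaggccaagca
GTAAACA began 179 bases before the start of FOXO3, and its reverse complement 10 bases before that of INSR. CAAAACA began 20 bases before the start of ZFAND5. GTAAACA or its reverse complement was present in 518 of 19556 promoter windows of the same length (2.65%), and CAAAACA or its reverse complement in 938 of them (4.8%). Neither string was present in the windows of FOXO1, FBXO32, TRIM63, IRS1 and IRS2. A match is a description of the letters in the window and does not show that a factor binds there.

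The libraries held 21516249 to 47724416 UMIs, and 41986 of 45580 barcodes were kept. Clustering without the 8 genes gave 19 clusters, of which 15 took a name from their markers and 4 stayed unnamed, among them cluster 17, led by the kidney and liver genes PCK1, G6PC1 and CUBN. The named classes were 29343 smooth muscle-like, 2726 fibroblast-like, 2024 macrophage-like, 1209 endothelial-like, 397 T or NK cell-like and 556 Schwann cell-like nuclei. All 10 smooth muscle markers were detected in the smooth muscle-like class. Libraries shared 10 to 29 barcodes a pair. The macrophage-like class held 410, 1377 and 145 nuclei of the obese pigs, against 57 and 35 of the control pigs. Levels are UMI counts of the summed nuclei of a class in 1 pig, per 1000000 UMIs of that sum (CPM), so they are shares of that class's RNA. Differences are log2 values from edgeR's quasi-likelihood fit with their standard error (SE), 3 obese against 2 control pigs.

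FOXO3, a FOXO factor tied to stress resistance and autophagy, was higher in obese pigs in the mesenchymal classes. In smooth muscle-like nuclei its level was 2209, 1983 and 1528 CPM in obese pigs, against 901 and 799.7 CPM in control pigs. Fibroblast-like nuclei had 2369, 1931 and 1465 CPM in obese pigs, against 972.5 and 949.8 CPM in control pigs. In both classes every obese pig lay above both control pigs, and obese replicate 3 was the lowest obese pig. The log2 differences were 1.09 (SE 0.22) in smooth muscle-like and 1.02 (SE 0.27) in fibroblast-like nuclei. All obese pigs above both control pigs was also the order of 18.1% of the genes tested in smooth muscle-like nuclei and of 13.2% of those in fibroblast-like nuclei.

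In the other 4 named classes the FOXO3 levels of the groups overlapped. Endothelial-like nuclei had 859, 884 and 579 CPM in obese pigs, against 433 and 827 CPM in control pigs. Macrophage-like nuclei had 1431, 756 and 631 CPM in obese pigs, against 604 and 818 CPM in control pigs. Obese replicate 1 was the highest of the 5 pigs in the macrophage-like, Schwann cell-like and T or NK cell-like classes. In the last of these its 1400.2 CPM was set against 621 and 422 CPM in the other obese pigs and 414 and 587 CPM in the control pigs. The fitted differences in the 4 classes ran from 0.35 (SE 0.32) in Schwann cell-like to 0.80 (SE 0.48) in T or NK cell-like nuclei. FOXO3 was thus positive in all 6 named classes and without overlap in 2 of them. Of the genes tested in all 6 classes, 23.3% were without overlap in that direction in at least 2. In the unnamed clusters together FOXO3 was 2118, 1571 and 1589 CPM in obese pigs, against 927 and 1082 CPM in control pigs, a difference of 0.88 (SE 0.28). Every obese pig lay above both control pigs there, as for 15.9% of the genes tested in these clusters. Over the 5 pigs the mean FOXO3 level was highest in fibroblast-like (1537 ± 616 CPM, SD, n = 5) and smooth muscle-like nuclei (1484 ± 629 CPM, SD, n = 5), a pair that did not differ beyond its spread.

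ZFAND5 encodes an A20-type zinc finger protein that binds ubiquitin chains and the proteasome. Its level in smooth muscle-like nuclei was 194, 150.2 and 249.97 CPM in obese pigs, against 68.6 and 90.2 CPM in control pigs. Fibroblast-like nuclei had 255, 237 and 396 CPM in obese pigs, against 56.4 and 80.7 CPM in control pigs. Endothelial-like nuclei had 245, 271 and 327 CPM in obese pigs, against 78.1 and 105 CPM in control pigs. The obese pigs lay above both control pigs in each of these classes, and obese replicate 3, the lowest for FOXO3, was the highest for ZFAND5. The log2 difference was 1.26 (SE 0.29) in smooth muscle-like, 2.16 (SE 0.35) in fibroblast-like and 1.71 (SE 0.32) in endothelial-like nuclei, where 18.5% of the genes tested were without overlap in that direction.

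Schwann cell-like and T or NK cell-like nuclei gave 6 to 129 UMIs of ZFAND5 a pig. Schwann cell-like nuclei had 128, 211 and 287 CPM in obese pigs, against 89.6 and 45.6 CPM in control pigs. T or NK cell-like nuclei had 112, 68.4 and 117 CPM in obese pigs, against 45.2 and 53.4 CPM in control pigs, and rested on 6 to 26 UMIs a pig. In these 2 classes the groups did not overlap, an order found for 13% of the genes tested in Schwann cell-like and 11.4% of those tested in T or NK cell-like nuclei. Macrophage-like nuclei were the class in which they did, with 128, 132 and 177 CPM in obese pigs, against 134 and 44.5 CPM in control pigs, the control values resting on 18 and 5 UMIs. ZFAND5 was thus positive in all 6 classes, without overlap in 5 of them, and 35 of 2722 genes tested in all 6 classes (1.29%) were without overlap in at least 5. Leaving out control replicate 1 made that 6 of 6 classes for ZFAND5. For FOXO3, leaving out control replicate 2 gave 6 classes, leaving out obese replicate 3 gave 5, and leaving out any other pig gave 2.

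**Figure D1:**
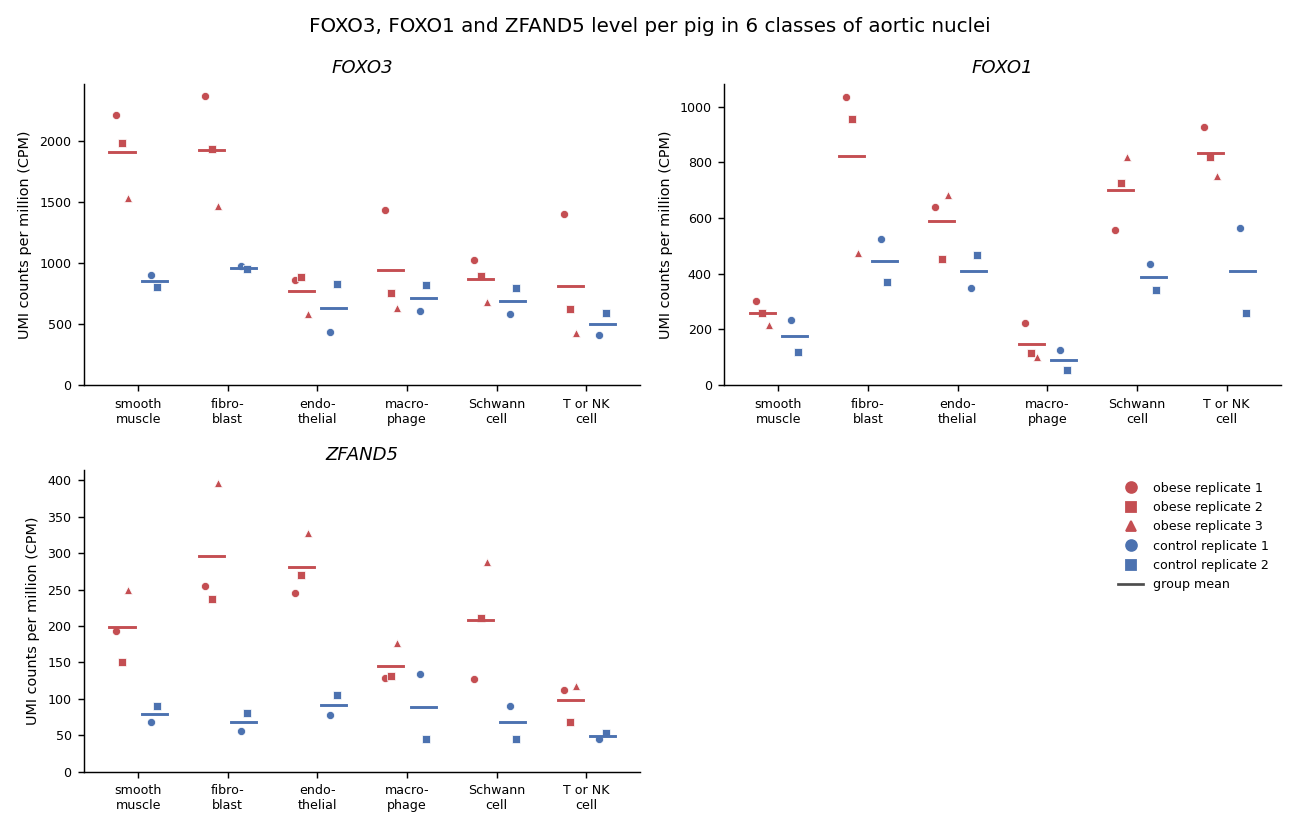
FOXO3, FOXO1 and ZFAND5 level in CPM (y axes, from 0) in each of 6 classes of nuclei (x axes), 1 point per pig (obese left, control right) with the group mean as a bar. FOXO3 of every obese pig lies above both control pigs in smooth muscle-like and fibroblast-like nuclei, and ZFAND5 in every class except macrophage-like nuclei.

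The same differences were read within single clusters, since several smooth muscle-like clusters were made up mostly of nuclei of 1 diet. Cluster 0, for example, held 1.7%, 3.6% and 8.8% of the smooth muscle-like nuclei of the obese pigs, against 46.7% and 34.8% of those of the control pigs. Clusters with at least 20 nuclei in every pig numbered 16. They included 6 of the 8 smooth muscle-like clusters. Left out were cluster 5, with 4 nuclei of control replicate 1, and cluster 9, with 2, 4 and 21 nuclei of the obese pigs. FOXO3 of every obese pig lay above both control pigs in 11 of these 16. Among them were the 6 smooth muscle-like clusters of that size, where the log2 difference ran from 0.72 (SE 0.28) in cluster 2 to 1.52 (SE 0.34) in cluster 3. Cluster 3 held 33 nuclei of control replicate 1, with 59 UMIs of FOXO3. ZFAND5 was without overlap in 11 of 16 as well, among them 5 of 6 smooth muscle-like clusters, with differences from 0.59 (SE 0.31) in cluster 11 to 1.91 (SE 0.39) in cluster 1. Of 2412 genes tested in all 16 clusters, 43 (1.78%) were without overlap in that direction in at least 11. The largest FOXO3 difference was in fibroblast-like cluster 13, at 1.71 (SE 0.34), where ZFAND5 differed by 2.27 (SE 0.42). In unnamed cluster 8, led by GPRC5A, ANKRD1 and INHBA, the difference of ZFAND5 was -0.04 (SE 0.51) and that of FOXO3 was 0.71 (SE 0.40). That cluster held only 20 and 26 nuclei of the control pigs, with 5 and 27 UMIs of ZFAND5.

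**Figure D2:**
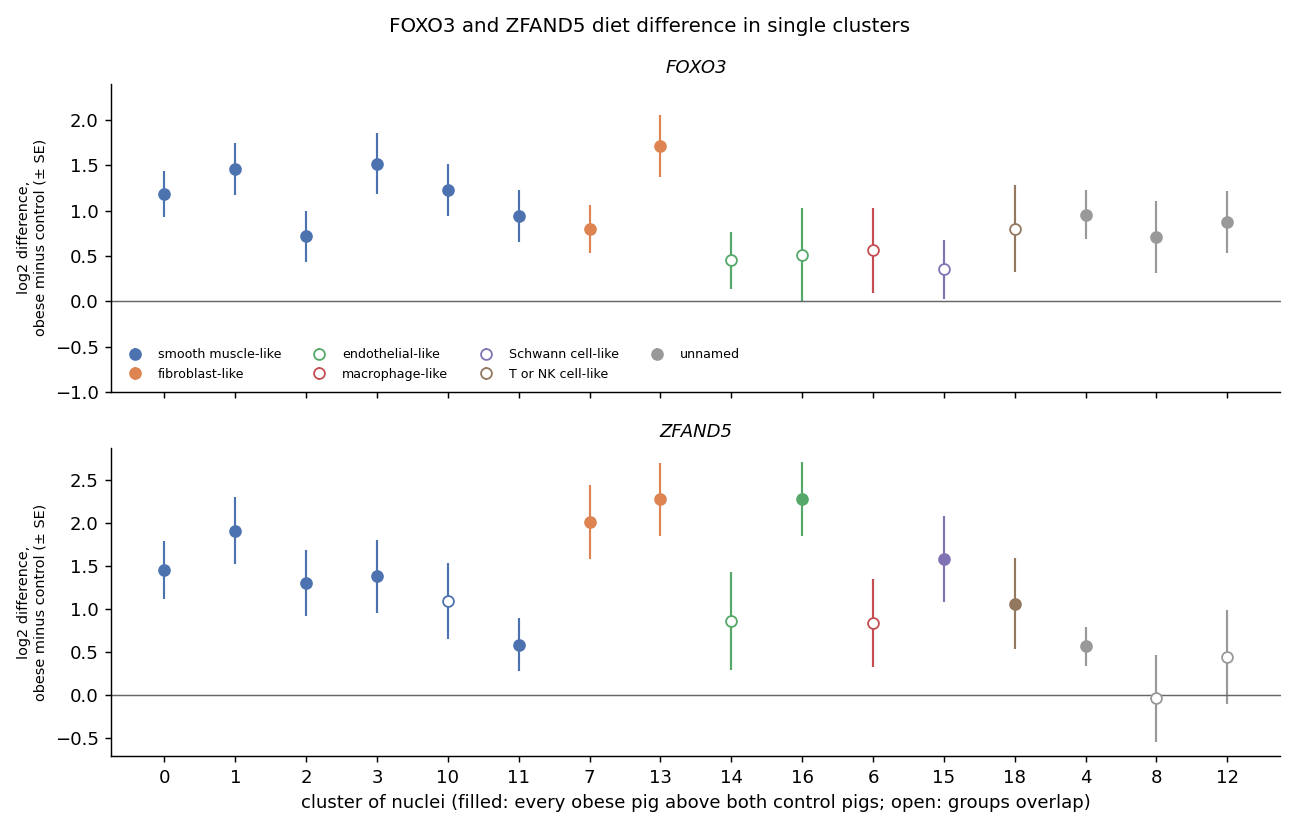
Log2 difference of FOXO3 (top) and ZFAND5 (bottom), obese minus control, in each of 16 clusters (x axis), with SE bars and colours for the class of the cluster. Filled points are clusters in which every obese pig lies above both control pigs, 11 of 16 for each gene.

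Genes of the immediate early and heat shock responses, which react within minutes to stimulation and to tissue handling, also differed between the groups. In fibroblast-like nuclei the 27 listed genes summed to 4101 to 6357 CPM in obese pigs, against 1253 to 1954 CPM in control pigs, and 17 of the 27 were higher in every obese pig than in both control pigs. In endothelial-like nuclei the sums were 4447 to 6518 CPM in obese pigs, against 1626 to 3440.5 CPM in control pigs, with 16 of 27 without overlap. In smooth muscle-like nuclei they were 2527 to 5287 CPM in obese pigs, against 1095 to 2553 CPM in control pigs, with 13 of 27 higher in every obese pig, and the sums overlapped, since obese replicate 2 lay below control replicate 2. In Schwann cell-like nuclei they were 2058 to 5712 CPM in obese pigs, against 1031 to 2295 CPM in control pigs, with overlap of the sums and 12 of 27 genes higher in every obese pig. In T or NK cell-like nuclei they were 2901 to 4294 CPM in obese pigs, against 572 to 2713 CPM in control pigs, with 6 of 27. In macrophage-like nuclei, the class where ZFAND5 overlapped, they were 2379 to 4024 CPM in obese pigs, against 2639 to 3095 CPM in control pigs, with 2 of 27 higher and 2 lower. The profile of ZFAND5 over the 30 class-by-pig sums was most like those of the immediate early genes JUNB (Pearson r = 0.80) and EGR1 (r = 0.77) and of IFRD1 (r = 0.80), a transcriptional co-regulator, on log2(CPM + 1) values. The sums share 5 libraries and 6 classes, so these correlations describe the sums only. The part of tissue handling in the ZFAND5 and FOXO3 differences was not tested.

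FOXO1, the FOXO factor best known for insulin-regulated metabolism and vessel growth, overlapped between the groups in 4 of 6 classes. In smooth muscle-like nuclei its level was 303, 258 and 217 CPM in obese pigs, against 233 and 117 CPM in control pigs. Fibroblast-like nuclei had 1034, 955 and 475 CPM in obese pigs, against 524 and 369 CPM in control pigs. Control replicate 1 lay within the range of the obese pigs in both classes. Schwann cell-like nuclei had 556, 726 and 819 CPM in obese pigs, against 433 and 342 CPM in control pigs, and T or NK cell-like nuclei had 926, 821 and 751 CPM in obese pigs, against 563 and 258 CPM in control pigs. These 2 classes were without overlap, and 23.3% of the genes tested in all 6 classes were so in at least 2. B or plasma cell markers in the T or NK cell-like class summed to 121 to 504 CPM in obese pigs, against 569 to 1576 CPM in control pigs, with 10 of 11 detected, TNFRSF17 at 0 and 5 lower in every obese pig. Their part in the differences of that class was not tested. The differences of FOXO1 were positive in all 6 classes, from 0.51 (SE 0.28) in smooth muscle-like to 1.03 (SE 0.38) in T or NK cell-like nuclei.

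Across classes FOXO1 and FOXO3 were arranged differently. FOXO1 averaged 671 ± 302 CPM in fibroblast-like, 664 ± 263 CPM in T or NK cell-like, 575 ± 198 CPM in Schwann cell-like and 518 ± 138 CPM in endothelial-like nuclei (SD, n = 5 pigs each), and these neighbours overlapped. In smooth muscle-like nuclei it averaged 225 ± 69 CPM, and no smooth muscle-like value reached the lowest endothelial-like one. Its lowest class was macrophage-like, at 124 ± 62 CPM. FOXO3 had its lowest mean over the 5 pigs in T or NK cell-like nuclei, at 689 ± 409 CPM, within the spread of endothelial-like nuclei, at 716 ± 200 CPM. Over the 30 sums the 2 genes correlated at r = 0.11. FOXO1 was most like MLLT3 (r = 0.84), ZDHHC14 (r = 0.80) and TMTC2 (r = 0.79), and FOXO3 most like CALU (r = 0.80), ISM1 (r = 0.79) and ZNF248 (r = 0.78), among 6020 genes.

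FBXO32 encodes the F-box protein atrogin-1, the substrate-binding subunit of a ubiquitin ligase complex. Its level was highest in smooth muscle-like nuclei, at 425, 649 and 359 CPM in obese pigs, against 202 and 358 CPM in control pigs. Obese replicate 3 and control replicate 2 were nearly level there, although the groups did not overlap, and the log2 difference was 0.68 (SE 0.30). Such an order held for 18.1% of the genes tested in smooth muscle-like nuclei. The gene was among the 10 leading genes of smooth muscle-like cluster 5, which held 15.5%, 12.9% and 9.2% of the smooth muscle-like nuclei of the obese pigs, against 0.045% (4 nuclei) and 3.2% of those of the control pigs. Within smooth muscle-like clusters 0, 1, 2 and 3 the groups overlapped for FBXO32, with differences from 0.33 (SE 0.27) to 0.79 (SE 0.36). In clusters 10 and 11 they did not, at 1.15 (SE 0.40) and 0.93 (SE 0.29). The share of all genes without overlap was not counted for single clusters. Macrophage-like nuclei had 164, 349 and 142 CPM in obese pigs, against 44.7 and 71.1 CPM in control pigs, the control values resting on 6 and 8 UMIs. Their difference was 2.08 (SE 0.58), the largest of FBXO32 in the 6 classes, and 16.6% of the genes tested in macrophage-like nuclei were without overlap in that direction. Of 8 adipocyte markers, 7 were detected in this class, with ADIPOQ at 0. They summed to 389 to 1249 CPM in obese pigs, against 44.5 to 142 CPM in control pigs, and 3 of the 8 were higher in every obese pig. Their part in the macrophage-like differences was not tested.

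Obese replicate 2 was the highest obese pig for FBXO32 in smooth muscle-like, fibroblast-like, endothelial-like, macrophage-like and Schwann cell-like nuclei. Endothelial-like nuclei had the least, with 29.6, 94.1 and 54.1 CPM in obese pigs, against 24.0 and 27.9 CPM in control pigs, without overlap. T or NK cell-like nuclei had 156, 116 and 129 CPM in obese pigs, against 43.4 and 97.8 CPM in control pigs, also without overlap. FBXO32 was thus without overlap in 4 of 6 classes, against 2 for FOXO3 and 5 for ZFAND5. Of the genes tested in all 6 classes, 23.3% were so in at least 2 and 1.29% in at least 5. The share for at least 4 was not counted. By class, that order held for 18.5% of the genes tested in endothelial-like and 11.4% of those in T or NK cell-like nuclei. Fibroblast-like nuclei had 65.9, 107 and 64.7 CPM in obese pigs, against 41.6 and 71.97 CPM in control pigs, with overlap. In Schwann cell-like nuclei the difference was 0.01 (SE 0.58). In unnamed cluster 8 the FBXO32 difference was -0.93 (SE 0.38), the control values resting on 15 and 34 UMIs.

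TRIM63 encodes MuRF1, a RING-finger ligase of sarcomere proteins, and was scarce outside 1 pig. Obese replicate 2 gave 569 of the 755 TRIM63 UMIs of the series, and 408 of its 569 (71.7%) were in macrophage-like nuclei. The macrophage-like level was 9.11, 63.7 and 8.84 CPM in obese pigs, against 0 CPM in both control pigs. Pooled, the obese level was at least 4.27-fold higher than the 3 UMIs that a count of 0 allows in the control sum. That bound rests on obese replicate 2, which gave 408 of the 424 obese UMIs, while obese replicates 1 and 3 lay below the control floor of 12.2 CPM. In obese replicate 2, 223 of 1377 macrophage-like nuclei (16.2%, exact 95% interval 14.3% to 18.2%) had a TRIM63 UMI, with up to 9 in 1 nucleus. In the same library 75 of 5460 smooth muscle-like nuclei (1.37%, 1.08% to 1.72%) and 0 of 81 T or NK cell-like nuclei (upper exact limit 4.45%) had one, at median depths of 2958, 2165 and 1602 UMIs. With every nucleus thinned to 1000 UMIs the shares in this library were 4.17% of macrophage-like and 0.712% of smooth muscle-like nuclei. Unthinned, 2.20% and 1.38% of the macrophage-like nuclei of obese replicates 1 and 3 had a TRIM63 UMI, against 0 of 57 and 0 of 35 in control pigs (upper exact limits 6.27% and 10.0%). The control nuclei were shallower than those of obese replicate 2, at medians of 948 and 1786 UMIs. Thinned to 1000 UMIs they numbered 27 and 25, with none holding a TRIM63 UMI. A count of 0 in so few nuclei excludes neither the shares of obese replicates 1 and 3 nor the thinned 4.17% of obese replicate 2.

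Smooth muscle-like TRIM63 was 1.47, 5.80 and 1.17 CPM in obese pigs, against 2.88 and 0.381 CPM in control pigs, with overlap. Over all kept nuclei the log2 difference was 2.09 (SE 1.19), and it was 0.09 without obese replicate 2 and 4.28 without control replicate 1. The skeletal muscle markers ACTA1, MYH1 and MYH7 were at 0 UMIs in macrophage-like nuclei, and 8 of 11 skeletal muscle markers were detected there, summing to 8.4 to 14.7 CPM in obese pigs, against 8.9 to 14.9 CPM in control pigs. TRIM63 did not pass the filter on low counts in fibroblast-like, endothelial-like, macrophage-like, Schwann cell-like and T or NK cell-like nuclei.

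INSR, the insulin receptor gene, had its own pattern. In endothelial-like nuclei its level was 333, 516 and 206 CPM in obese pigs, against 116 and 109.8 CPM in control pigs. Its log2 difference there was 1.71 (SE 0.36), without overlap, as for 18.5% of the genes tested in these nuclei. Smooth muscle-like nuclei had 164, 217 and 167 CPM in obese pigs, against 196 and 217 CPM in control pigs, a difference of -0.26 (SE 0.20) with overlap. Fibroblast-like nuclei had 175, 260.2 and 176 CPM in obese pigs, against 179.99 and 189 CPM in control pigs, a difference of 0.16 (SE 0.24). In macrophage-like nuclei the difference was -0.00 (SE 0.54). The endothelial-like difference minus the smooth muscle-like one was 1.73 (SE 0.36) in a fit with the pig as a block, and for ZFAND5 the same quantity was 0.31 (SE 0.36) and for FOXO3 -0.82 (SE 0.35). Of 16597 genes in that fit, 646 (3.89%) differed between the classes in their diet difference at an adjusted p under 0.05, 338 of them larger and 308 smaller in endothelial-like nuclei, and 439 and 226 with median-ratio factors.

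The endothelial-like class was made of 2 clusters that the diets filled unequally. Cluster 14, led by EMCN, VWF, FLT1 and PROX1, held 72.5%, 82.5% and 76.5% of the endothelial-like nuclei of the obese pigs, against 36.5% and 24.0% of those of the control pigs. Cluster 16, led by NOS3, BMX and BMP6, held the rest. INSR was higher in cluster 14 than in cluster 16 in all 5 pigs. In cluster 14 its level was 456, 569 and 289 CPM in obese pigs, against 283 and 265 CPM in control pigs, a difference of 0.77 (SE 0.36). In cluster 16 it was 176, 218 and 25.7 CPM in obese pigs, against 86.3 and 95.7 CPM in control pigs, a difference of 0.75 (SE 0.57), and the value of obese replicate 3 rested on 3 UMIs. Within either cluster the difference was thus smaller than the 1.71 of the summed class. Markers of other cell types differed between the groups in their sums here. All 7 lymphatic endothelial markers in the files were detected, summing to 235 to 971 CPM in obese pigs, against 92.4 to 98.4 CPM in control pigs, but only 1 of the 7 was higher in every obese pig. The sum of 8 adipocyte markers was 143 to 188 CPM in obese pigs, against 9.84 to 73.9 CPM in control pigs, with 6 detected, ADIPOQ and LEP at 0 and 1 of 8 without overlap. Macrophage markers summed to 205 to 254 CPM in obese pigs, against 107 to 149 CPM in control pigs, with 12 of 13 detected, C1QA at 0 and 3 higher in every obese pig. Fibroblast markers, all 10 of 10 detected, summed to 322 to 396 CPM in obese pigs, against 897 to 952 CPM in control pigs, with 4 lower and 1 higher in every obese pig. The part of these markers in the endothelial-like differences was not tested.

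**Figure D3:**
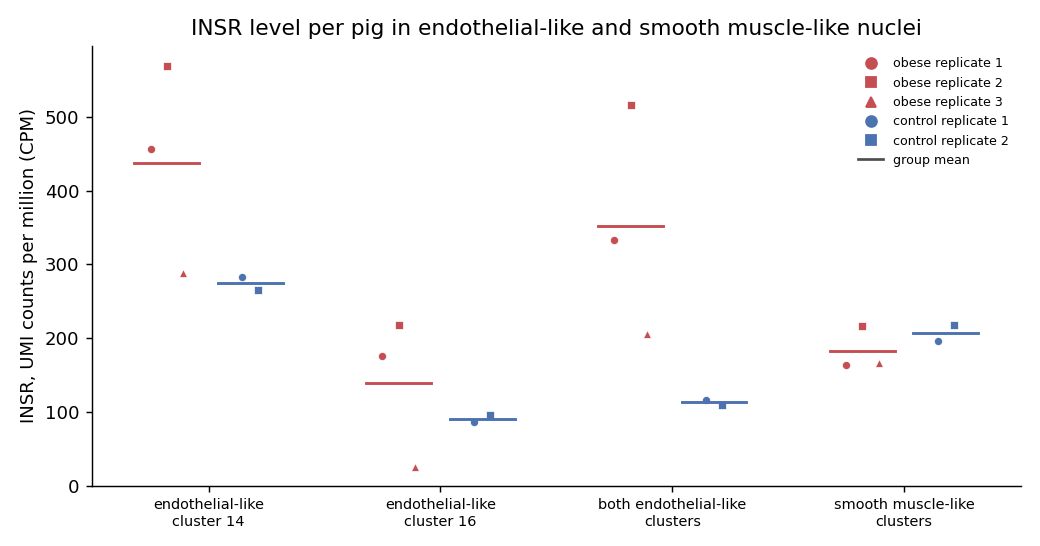
INSR level in CPM (y axis, from 0) in the 2 endothelial-like clusters, in their sum and in smooth muscle-like nuclei, 1 point per pig (obese left, control right) with the group mean as a bar. The groups are farther apart in the sum of both clusters (333, 516 and 206 CPM in obese pigs, against 116 and 109.8 CPM in control pigs) than in either cluster.

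The same split bears on ZFAND5 and FOXO1. ZFAND5 in cluster 14 was 187, 264 and 229 CPM in obese pigs, against 55.6 and 246 CPM in control pigs, with overlap. In cluster 16 it was 318, 305 and 539 CPM in obese pigs, against 82.2 and 92.1 CPM in control pigs, a difference of 2.28 (SE 0.43). FOXO1 in cluster 16 was 782, 479 and 1163 CPM in obese pigs, against 338 and 487 CPM in control pigs. INSR over the 30 sums was most like NFIB (r = 0.85), WWTR1 (r = 0.83) and FLRT2 (r = 0.81).

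IRS1 and IRS2, the docking proteins next to the receptor, did not separate the groups in any of the 6 named classes. In the unnamed clusters together, IRS1 was 49.6, 71.7 and 34.1 CPM in obese pigs, against 81.3 and 89.5 CPM in control pigs, a difference of -0.69 (SE 0.28). Every obese pig lay below both control pigs there, as for 18.2% of the genes tested in these clusters. IRS1 was highest in fibroblast-like nuclei, with 70.8, 96.5 and 71.2 CPM in obese pigs, against 77.8 and 68.7 CPM in control pigs. Every pig had more IRS1 in fibroblast-like than in smooth muscle-like nuclei, where its level was 39.2, 61.1 and 55.2 CPM in obese pigs, against 58.5 and 41.4 CPM in control pigs. The smooth muscle-like difference was -0.01 (SE 0.25). Smooth muscle-like IRS2 was at 73.3, 39.97 and 69.7 CPM in obese pigs, against 45.0 and 53.2 CPM in control pigs, a difference of 0.26 (SE 0.30). Macrophage-like nuclei had 55.4, 56.1 and 136 CPM of IRS2 in obese pigs, against 119 and 222 CPM in control pigs, the only class with a difference below 0 for IRS2, at -0.94 (SE 0.56). Endothelial-like nuclei had 0 to 19 UMIs of IRS1 and 1 to 12 UMIs of IRS2 a pig, and neither gene passed the filter there. Their IRS2 level was 1.64, 2.61 and 13.5 CPM in obese pigs, against 4.64 and 3.28 CPM in control pigs.

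**Figure D4:**
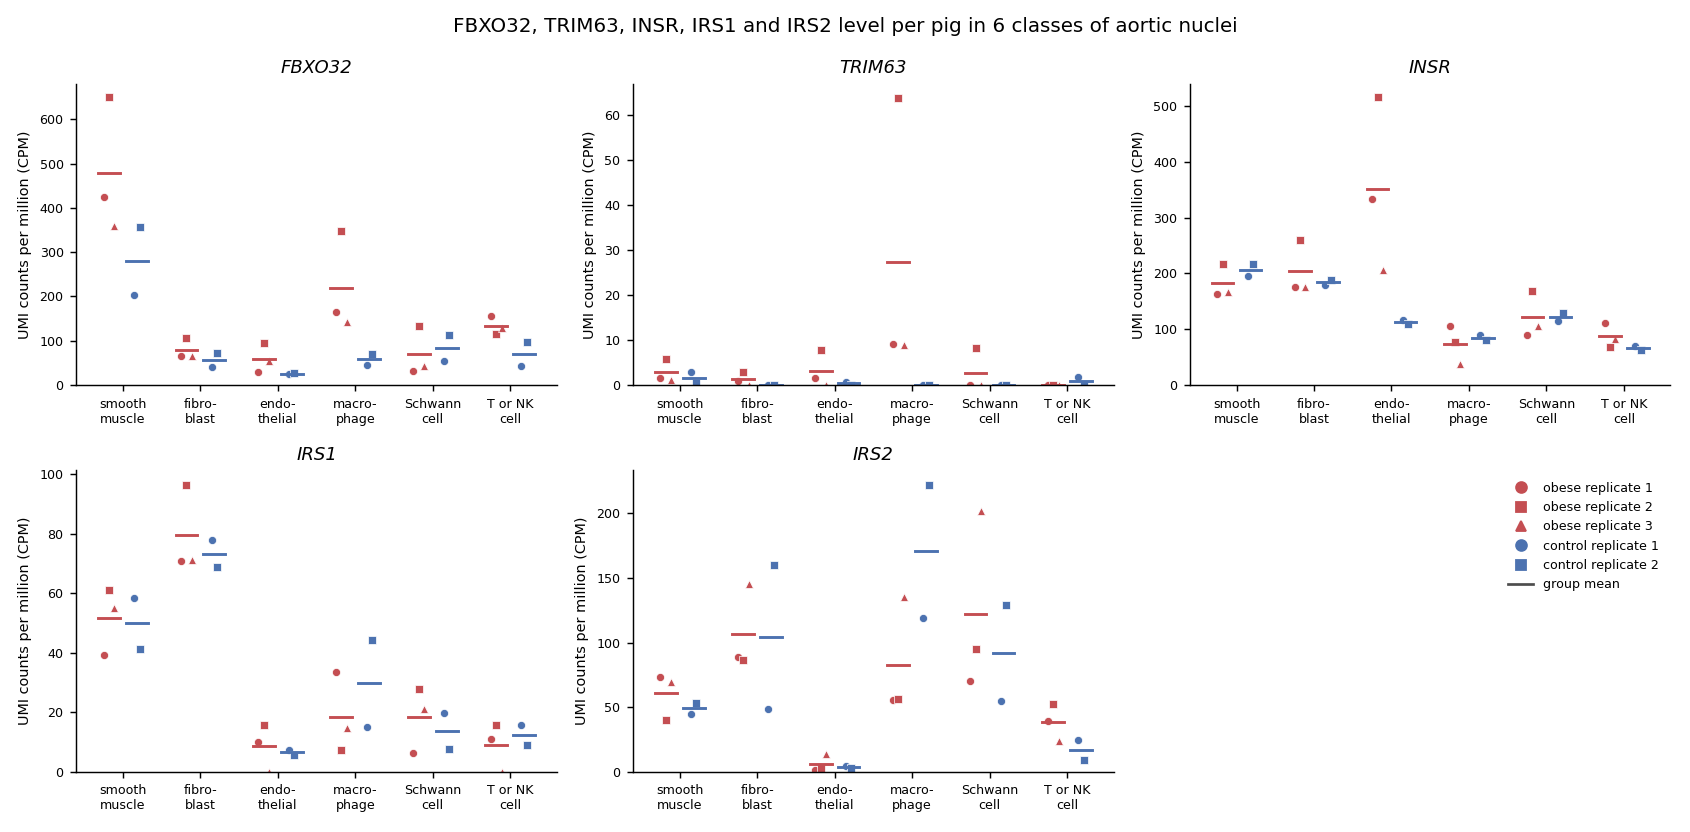
FBXO32, TRIM63, INSR, IRS1 and IRS2 level in CPM (y axes, from 0) in each of 6 classes of nuclei (x axes), 1 point per pig (obese left, control right) with the group mean as a bar. FBXO32 is highest in smooth muscle-like nuclei, the macrophage-like TRIM63 level stands on obese replicate 2, and IRS2 is at 1.64 to 13.5 CPM in endothelial-like nuclei.

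Set side by side, the 8 genes passed the filter on low counts in unequal numbers: 8 in smooth muscle-like, 7 in fibroblast-like, 7 in macrophage-like, 6 in Schwann cell-like, 5 in endothelial-like and 5 in T or NK cell-like nuclei. No call is read for the members, and the share of all genes called at an adjusted p under 0.05 was 7.33% in endothelial-like nuclei (571 of 7792), 0.187% in smooth muscle-like (33 of 17623), 0.255% in fibroblast-like (23 of 9029) and 0.611% in macrophage-like nuclei (35 of 5726). It was 0.073% in T or NK cell-like nuclei (3 of 4112) and 0% in Schwann cell-like nuclei (0 of 3434). Over all kept nuclei edgeR called 0 of 20037 genes, with 2816 at an unadjusted p under 0.05, while DESeq2 called 787 and limma-voom 1. Among the members without overlap, FBXO32 in smooth muscle-like nuclei had the narrowest gap relative to its level, with 359 CPM in the lowest obese pig and 358 CPM in the highest control pig. Endothelial-like nuclei of obese pigs were shallower, at median depths of 1578, 1710 and 1834 UMIs, against 5214 and 5489.5 UMIs in control pigs, and depth and diet cannot be told apart there.

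**Figure D5:**
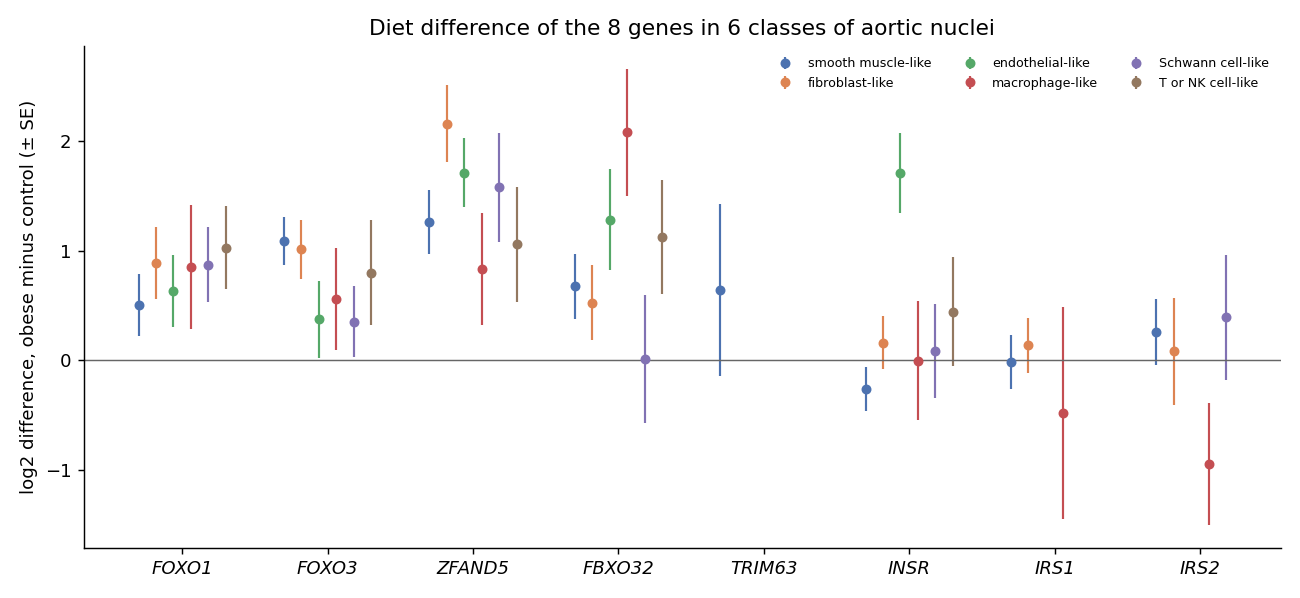
Log2 difference, obese minus control (y axis), of the 8 genes (x axis) in 6 classes of nuclei (colours), with SE bars, where the gene passed the filter on low counts. FOXO1, FOXO3, ZFAND5 and FBXO32 lie above 0 in every class, FBXO32 only at 0.01 in Schwann cell-like nuclei. INSR is at 1.71 in endothelial-like nuclei, and INSR, IRS1 and IRS2 lie on both sides of 0.

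Other genes of the pathway were read from 7 lists, which were chosen with earlier results of these data known. For comparison, the share of all genes called was 0.187% in smooth muscle-like, 0.255% in fibroblast-like, 7.33% in endothelial-like and 0.611% in macrophage-like nuclei. Among ligands, receptors and docking proteins of insulin and IGF, 27 of 28 were in the files, and edgeR's quasi-likelihood test with Benjamini-Hochberg adjustment over all genes called 0 of 22 tested in smooth muscle-like, 0 of 19 in fibroblast-like, 2 of 18 in endothelial-like and 1 of 12 in macrophage-like nuclei, all higher in obese pigs. The endothelial-like calls were SOCS3, a feedback inhibitor of cytokine and insulin signalling, with 84.2 ± 34.9 CPM in obese and 6.74 ± 1.41 CPM in control pigs (adjusted p = 0.00693), and IGFBP4, an IGF-binding protein, with 21.1 ± 5.7 CPM in obese and 5.96 ± 0.32 CPM in control pigs (adjusted p = 0.0499). In macrophage-like nuclei ENPP1, a pyrophosphatase reported in humans to inhibit the insulin receptor, rose to 789, 1535 and 1094 CPM in obese pigs, against 7.45 and 8.89 CPM in control pigs. Those control values were 1 UMI each, so the pooled ratio of 171 had an exact 95% counting interval of 47.3 to 1412. That interval does not cover variation between pigs, and obese replicate 2 gave 9826 of the 11323 obese UMIs. The gene passed the filter on low counts through the obese pigs, as SOCS3 and IGFBP4 did in endothelial-like nuclei. Its call was lost with limma-voom, without obese replicate 3 and without either control pig. Its log2 difference of 7.27 ran from 6.63 to 8.19 over 12 alternatives. IGF1R, the receptor closest to INSR, averaged 2279 ± 77 CPM in obese and 2392 ± 315 CPM in control smooth muscle-like nuclei (SD, n = 3 and 2).

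Along the PI3K-AKT-mTOR list 36 of 37 genes were in the files and 36 were tested in smooth muscle-like nuclei, with 0 called there, 0 of 31 in fibroblast-like, 2 of 32 in endothelial-like and 0 of 28 in macrophage-like nuclei. The 2 of 32 were no more than the 7.33% of all genes called in endothelial-like nuclei. DEPTOR, an inhibitor within the mTOR complexes, had 292 ± 14 CPM in obese and 55.1 ± 11.8 CPM in control endothelial-like nuclei (log2 difference 2.49, SE 0.31). TRIB1, a pseudokinase of the Tribbles family, had 39.3 ± 20.4 CPM in obese and 2.22 ± 1.50 CPM in control pigs there, on 7 control UMIs. It passed the filter on low counts through the obese pigs. Of the FOXO family and regulators of FOXO proteins, 27 of 28 were in the files and none was called, over 26, 24, 24 and 21 genes tested in smooth muscle-like, fibroblast-like, endothelial-like and macrophage-like nuclei. The kinase gene STK3 and the acetyltransferase gene CREBBP, the most abundant of them in smooth muscle-like nuclei, differed there by -0.11 (SE 0.21) and 0.23 (SE 0.21).

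Textbook FOXO targets were called in 2 classes. KLF2, a flow-responsive transcription factor, rose to 31.1 ± 7.4 CPM in obese smooth muscle-like nuclei, against 4.70 ± 0.46 CPM in control ones (log2 difference 2.67, SE 0.33), and was the only call among 33 targets tested there. In endothelial-like nuclei, where 7.33% of all genes were called, 3 of 23 tested were called, all higher. They were SOD2, the mitochondrial superoxide dismutase (log2 difference 3.73, SE 0.44), the cell-cycle inhibitor gene CDKN1A (2.06, SE 0.44) and TRIB1. All 3 passed the filter on low counts through the obese pigs. None was called among 18 in fibroblast-like and 15 in macrophage-like nuclei. The median difference of the targets tested was 0.64 in smooth muscle-like, 0.71 in fibroblast-like, 0.54 in endothelial-like and -0.23 in macrophage-like nuclei, where the median over all genes tested was 0.01, 0.00, -0.02 and 0.13. TXNIP and SESN3, FOXO targets of redox and nutrient sensing, had differences of -1.83 (SE 0.44) and -1.35 (SE 0.50) in macrophage-like nuclei, neither past the threshold.

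Atrophy ligases and ubiquitin-proteasome genes were represented by 41 of 43 genes. In endothelial-like nuclei 2 of 30 tested were called, no more than the 7.33% of all genes called there. Among the 2 was the ZFAND5 relative ZFAND2A (20.2 ± 9.8 CPM in obese and 4.39 ± 0.74 CPM in control pigs), which is induced by arsenite. ZFAND2A passed the filter on low counts through the obese pigs. None was called among 38 in smooth muscle-like, 31 in fibroblast-like and 21 in macrophage-like nuclei. ZFAND3, another member of the ZFAND family, differed by 0.33 (SE 0.23) in smooth muscle-like nuclei, and the ligase gene CBLB by 0.06 (SE 0.20). In the autophagy list, all 26 of 26 genes were in the files and 1 call was made in the 4 classes, the mitophagy receptor gene BNIP3 in endothelial-like nuclei (20.8 ± 6.6 CPM in obese, 3.98 ± 0.16 CPM in control pigs), on 15 control UMIs. That was 1 of 23 tested in these nuclei, no more than the 7.33% of all genes called there. BNIP3 passed the filter on low counts through the obese pigs. Median differences of the autophagy list were 0.11, 0.19, 0.16 and 0.23 in smooth muscle-like, fibroblast-like, endothelial-like and macrophage-like nuclei.

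Most calls came from the list of immediate early and heat shock genes, itself chosen with earlier results of these data known. Called were 2 of 26 in smooth muscle-like, 2 of 22 in fibroblast-like, 12 of 23 in endothelial-like and 0 of 20 in macrophage-like nuclei. All calls were higher in obese pigs. In smooth muscle-like nuclei these were the phosphatase gene DUSP1 (162 ± 83 CPM in obese, 22.7 ± 2.7 CPM in control pigs) and the AP-1 gene FOSL2 (195 ± 51 CPM in obese and 51.6 ± 11.5 CPM in control pigs). In fibroblast-like nuclei they were FOSL2 and the stress factor gene ATF3 (118 ± 61 CPM in obese and 13.4 ± 7.3 CPM in control pigs). The endothelial-like calls of smallest adjusted p were ATF3, FOSL2, EGR1, FOS, KLF6 and ZFP36, with log2 differences from 2.13 (SE 0.32) for KLF6 to 3.63 (SE 0.36) for ATF3. Median differences of the list were 1.06, 1.73, 1.33 and 0.06 in smooth muscle-like, fibroblast-like, endothelial-like and macrophage-like nuclei, and 1.43 and 1.24 in Schwann cell-like and T or NK cell-like nuclei. All calls of the endothelial-like class belong to the summed clusters, and cluster 14 alone called 0 genes of any kind and cluster 16 alone 89. Of the 21 calls selected from the 7 lists in the 4 main classes, 2 remained without control replicate 1 and 6 without control replicate 2, and 14, 16 and 18 remained without obese replicates 1, 2 and 3.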

How the data were processed

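Single-nucleus libraries of 3 obese and 2 control pigs were read from raw UMI counts per feature and barcode, as deposited by the authors (Cell Ranger 5.0 per the labels' processing notes, 7.1.0 per the file headers; build Sscrofa11 per the labels). The 8 genes and all gene lists were chosen with earlier results of these data known. Of 35670 features, 17508 had a symbol in the files, 223 took one from a gene table and 17939 were tested unnamed.

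Barcodes under 300 genes or over 5% mitochondrial UMIs were dropped (77 of 45580). Scrublet's automatic threshold marked 8 barcodes, so the highest-scoring ones were removed at 0.8% per 1000 barcodes (3517). Nuclei were clustered in scanpy 1.11.5 on 3000 variable genes chosen by Pearson residuals, without the 8 genes (30 components, 20 neighbours, resolution 1). The way variable genes were chosen and a rule that 50% of a class's markers must be present were set after a first clustering had been seen. A class was named from at least 3 markers, and T or NK cell-like nuclei also held B cell markers.

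Counts were summed per pig and class and tested with edgeR 4.0.16 (quasi-likelihood, TMM factors, its filter on low counts, Benjamini-Hochberg, adjusted p under 0.05). The step was tested on simulated data. The pig was the replicate, and the labels do not say how pigs were allocated to diets. Genes were named by rule: the 8 members, of each list and class the genes called (at most 6), or else the 2 of highest level, and the 3 genes most like FOXO3, ZFAND5, FOXO1 and INSR. Some genes that this rule selects are not reported here. Intervals and floors (3 counts) cover counting error only. Alternatives were DESeq2 1.42.0, limma-voom 3.58.1, median-ratio factors, no filter, a replicate block, each pig left out, no doublet removal, resolution 0.5 and, added after seeing the data, single clusters, smooth muscle-like clusters with at least 20 nuclei in every pig, and unnamed clusters added to the smooth muscle-like sums.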

Additional observations from a re-analysis of the deposited data

Results flagged for a closer look

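The fitted diet difference of INSR was larger in endothelial-like than in smooth muscle-like nuclei. In edgeR's fit with the pig as a block and an interaction of class and diet, the endothelial-like difference minus the smooth muscle-like one was 1.73 (SE 0.36). Over all 16597 genes, 646 (3.89%) had such a difference at an adjusted p under 0.05. Within the classes the differences were 1.71 in endothelial-like and -0.26 in smooth muscle-like nuclei. INSR had been listed with the diet differences known, so its value is a description and no test is read from it. In endothelial-like clusters 14 and 16 taken alone the differences were 0.77 and 0.75.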

How the results depend on the processing

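Main counts of genes called were 33 in smooth muscle-like, 23 in fibroblast-like, 571 in endothelial-like and 35 in macrophage-like nuclei and 0 over all kept nuclei. DESeq2 called 545, 130, 810, 235 and 787 in the same order, and no filter on low counts gave 848, 389, 1235, 418 and 568. Limma-voom called 18 in smooth muscle-like and 0 in macrophage-like nuclei and 1 over all kept nuclei. Without doublet removal 85 were called in macrophage-like nuclei and 1 over all kept nuclei. With a replicate block the counts were 132 in smooth muscle-like, 0 in fibroblast-like and 53 in macrophage-like nuclei and 460 over all kept nuclei. The labels number the pigs of both groups but do not pair them, and deviations of same-numbered pigs correlated at -0.093 to 0.062, so the block describes shared numbers only. Smooth muscle-like clusters with at least 20 nuclei in every pig called 15, and 68 were called with unnamed clusters added. Cluster 7 alone called 7 and cluster 13 alone 0, against 23 for both, and cluster 14 alone called 0 and cluster 16 alone 89, against 571. The difference between fibroblast-like and smooth muscle-like effects called 222 genes with no filter, against 9. That between macrophage-like and smooth muscle-like effects called 205 larger and 128 smaller genes, against 110 and 130 with median-ratio factors. The cause of these shifts was not tested.

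Leaving out 1 pig gave 0 to 73 calls in smooth muscle-like, 0 to 93 in fibroblast-like, 28 to 646 in endothelial-like and 0 to 154 in macrophage-like nuclei and 0 to 367 over all kept nuclei. The lowest endothelial-like counts were 28 without control replicate 1 and 80 without control replicate 2, and 302 without obese replicate 1, while smooth muscle-like nuclei called 0 without obese replicate 1, 2 without either control pig, and 73 and 70 without obese replicates 2 and 3. Fibroblast-like nuclei called 0 without obese replicate 1 or either control pig, 48 without obese replicate 2 and 93 without obese replicate 3. Macrophage-like nuclei called 0 without obese replicate 3 or either control pig, 154 without obese replicate 1 and 62 without obese replicate 2. Over all kept nuclei, 198 were called without obese replicate 2 and 367 without obese replicate 3. Differences between classes called 0 to 29 (fibroblast-like), 248 to 742 (endothelial-like) and 118 to 297 (macrophage-like) genes against smooth muscle-like nuclei, where the full sets gave 9, 646 and 333. The classes without overlap numbered 2 to 6 for FOXO3 and 5 to 6 for ZFAND5. A group left with 1 control pig is assumed to vary like the obese group.

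Over 35 differences of the 8 genes, 430 of 448 alternative values kept their sign. Limits are the 2 control pigs, the 92 control macrophage-like nuclei and classes rebuilt from clusters.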
